A study of Homo sapiens with 7 samples.

Results

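The clustered protocadherins were taken as the protein-coding genes of GENCODE release 44 on chromosome 5 whose symbols begin with PCDHA, PCDHB, PCDHGA, PCDHGB or PCDHGC followed by a number. This gave 51 of 20033 protein-coding genes, namely 13 alpha, 16 beta and 22 gamma members, all on the plus strand. H3K4me1 intervals were counted within 2 kb of each 5′ end, and across the 3 clusters with 100 kb on either side (chr5:140686136-141612977 of hg38, 927 kb). The C-type alpha genes PCDHAC1 and PCDHAC2 lie in the same span but carry no number after PCDHA, so they were not members and are described separately. The members were chosen by symbol and not by any measured value, although earlier results of these data were known.

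The cells were SW1990, a human pancreatic cancer cell line in long use. The labels give shRNA as the treatment, with a negative control (NC) and a knockdown of KMT2D (KMT2D-KD), and ChIP-seq was carried out for KMT2D, EBF2 and H3K4me1 in each, with 1 library for each target and condition and 1 input library. KMT2D is a methyltransferase that places monomethyl groups on lysine 4 of histone H3, the mark H3K4me1, and EBF2 is a transcription factor. With 1 library per group there was no replicate and no test of the knockdown could be made, so all differences below are differences between libraries, and their confidence intervals cover counting error only. The labels do not say whether the knockdown cells were 1 clone or a pool, nor which of the 2 conditions the input came from, and the level of KMT2D itself was not analysed here.

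Clustered protocadherins are cadherin-related cell adhesion proteins, best known in neurons, where each cell uses a small choice of the variants and thereby carries a surface identity. In the alpha and gamma clusters each variable exon has its own promoter and encodes the extracellular part, and it is spliced to constant exons shared by the whole cluster, whereas the beta genes are single-exon genes. Promoters of most members carry a conserved sequence element containing CGCT, and binding of CTCF and cohesin at promoters and at distant enhancers takes part in the choice of promoter. H3K4me1 is the mark commonly found at enhancers and on the flanks of active promoters.

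The letters around CGCT are shown first for members of each family, because most member promoters share the element. Sequences come from the RefSeq promoter table (GRCh38.p14), which holds 250 bases before and 50 bases after each start, and 45 of the 51 members matched it. The RefSeq start can differ from the GENCODE 5′ end used for the intervals. The largest gaps were 2476 bases for PCDHGA8, 774 for PCDHA11 and 610 for PCDHA9. The 24 bases around the CGCT are printed 5′ to 3′ on the gene strand with CGCT in capitals, for the first and last members of a family with a single CGCT in the window and for PCDHB13 and PCDHGA2, which are described below. CGCT was searched as a known letter group of the element, and the flanking letters counted below and these examples were chosen after the sequences had been seen.
PCDHA1: tggccacatgatgtCGCTgtacac
PCDHA12: cagtcacatgatgtCGCTctacac
PCDHB2: gagacgcggggtggCGCTgcagcc
PCDHB13: aggacgcgtggtggCGCTgcagga
PCDHB15: acaacgcatggtggCGCTgcaggc
PCDHGA1: aggactgtgggcgcCGCTgttcac
PCDHGA2: aggcctctgagcgtCGCTgttgac
PCDHGC4: ctgagcccgggagcCGCTgtctgc

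CGCT on the gene strand between 120 and 30 bases before the start was present in 41 of the 45 members (91.1%), against 32.6% of the 15366 protein-coding genes matched and 25.9% of all promoters in the table. CGCT on either strand anywhere in the 300 bases was found in 97.8% of members, 81.6% of protein-coding genes and 70% of all promoters. The longer CGCTG in the same 120 to 30 base window was found in 34 members (75.6%) and in 14.3% of protein-coding genes, and it contains CGCT, so the counts overlap. The bases before the CGCT differed by family. GATGT preceded it in 9 of the 10 alpha members that held a single CGCT in the window, and GGTGG preceded it in all 11 such beta members. Among the 14 such gamma members, GC came directly before it in 8 and GT in 5. PCDHGC4 is counted here by its CGCT alone, and whether that CGCT is the conserved element was not tested. The CGCT began between 38 and 81 bases before the start in alpha members, 38 to 79 in beta members and 39 to 95 in gamma members. A match of these letters describes the sequence and does not show that it is the conserved element or that a factor binds there.

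The member promoters were poor in G and C and in CpG. Their median GC content was 39.7% (range 32.3 to 60.7%), and that of protein-coding genes was 63.0%. The number of CpG dinucleotides per 300 bases had a median of 7 in members (range 2 to 23) and 22 in protein-coding genes. The alpha promoters were the lowest, with a median GC content of 36.0%, and the gamma C-type genes PCDHGC3 and PCDHGC4 stood apart at 59.0 and 60.7% GC, with 18 and 23 CpG. AGNNGGC, the core of the CTCF motif, was found on either strand in 15 of 45 members (33.3%) against 71.0% of protein-coding genes. Among the members it was found in 57.1% of beta and 9.09% of alpha promoters. Base composition differs strongly between these sets, and how far it sets the motif shares was not tested. Only this form of the motif was searched, and it can overlap the CGCT letters, as in PCDHB7. A low share therefore does not show a lack of CTCF sites, and whether the CGCT element holds such a site was not tested.

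**Figure D1:**
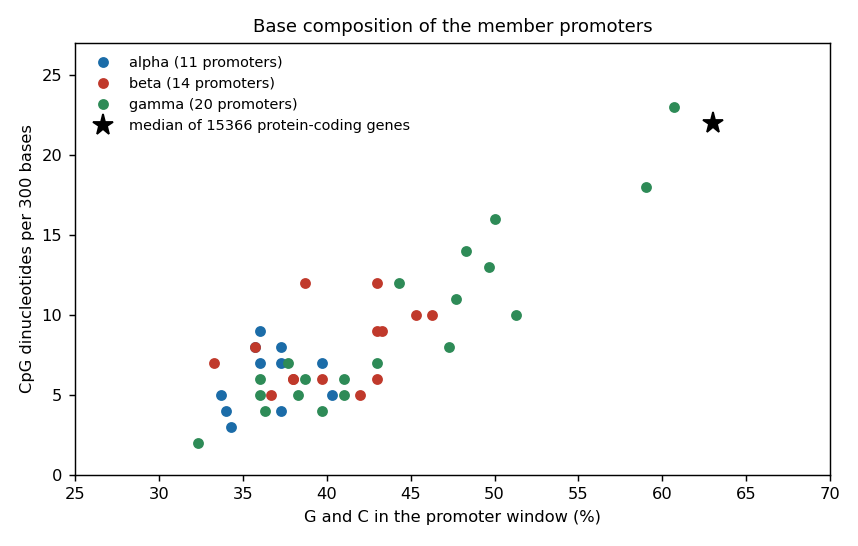
The number of CpG dinucleotides in the 300-base promoter window is plotted against its G and C content in percent, with 1 point for each of the 45 members matched, coloured by family. The members range from 2 to 23 CpG, and 2 gamma C-type genes lie near the star, which marks the medians of 15366 protein-coding genes (63.0% and 22 CpG).

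H3K4me1 intervals were scarce at the member 5′ ends. In NC, 0 of 51 members had an interval within 2 kb, which allows a share of up to 5.88% by the limit of 3 counts, and the exact binomial 95% interval (Clopper-Pearson) reached 6.98%. The share over all protein-coding genes was 17.7%. In KMT2D-KD, 1 of 51 members had one (1.96%, exact interval 0.0496 to 10.4%), against 28.4% of all protein-coding genes. An interval present in KMT2D-KD alone was found for 1 member, PCDHGA1, and for 14.2% of all protein-coding genes, and an interval in NC alone for 0 members and 3.39% of genes. The exact interval for 0 of 51 includes the share of 3.39%. With only intervals of a −log10 q of at least 5, 0 members had one in either list, against 4.47% (NC) and 9.55% (KMT2D-KD) of all genes and 6.58% for KMT2D-KD alone. At that limit the exact interval of up to 6.98% included the shares of 4.47 and 6.58% and not that of 9.55%. Within 5 kb there were 2 members (3.92%) in NC and 3 (5.88%) in KMT2D-KD, against 30.2 and 42.9% of all genes. Neighbouring members share the same intervals and 3 neighbouring pairs lie within 4 kb, so members are not independent and these binomial intervals are narrower than they should be.

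The rest of chromosome 5 was not poor in intervals. Of its 831 other protein-coding genes, 25.4% had an interval within 2 kb in NC, and 35.4% had one in KMT2D-KD. Protein-coding genes with 5 to 10 CpG in the promoter window, the quartiles of the members, had one in 12% (NC) and 18.9% (KMT2D-KD) of 1778 cases. Those shares lie below that of all genes and above that of the protocadherins, and the members' exact intervals reached 6.98 and 10.4%. Other large gene clusters were also low, with 1.69 and 2.25% of 178 olfactory receptor genes of chromosome 11 and 7.69 and 10.3% of 39 HOX genes, in NC and KMT2D-KD. The exact interval of the members overlapped those of both sets in both conditions.

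The single member with an interval in its window was PCDHGA1, the first gene of the gamma cluster, whose variable exon begins at chr5:141330514. In KMT2D-KD an interval at chr5:141330546-141330877 began 32 bases inside the gene and overlapped its first exon. The fold enrichment over background at the summit was 4.75, the −log10 q was 4.75 and 12 fragments were recovered there, the median of the list. In NC the nearest interval to it was 2787 bases away. The interval lay near the middle of its own list, since 60.6% of the KMT2D-KD intervals had a lower −log10 q.

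The 250 bases before the PCDHGA1 start (chr5:141330264-141330513, plus strand, RefSeq promoter table) are shown with CGCT in capitals. They were chosen because this was the single promoter with an adjacent interval. The 201 bases around the summit of that interval (chr5:141330694-141330894, plus strand, hg38) are shown beside it, with CG in capitals.
PCDHGA1 upstream: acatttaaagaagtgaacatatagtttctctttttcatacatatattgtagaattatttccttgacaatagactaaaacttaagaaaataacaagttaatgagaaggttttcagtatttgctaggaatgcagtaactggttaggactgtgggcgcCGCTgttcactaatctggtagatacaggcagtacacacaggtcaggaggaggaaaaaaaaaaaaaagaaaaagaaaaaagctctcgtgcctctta
PCDHGA1 summit: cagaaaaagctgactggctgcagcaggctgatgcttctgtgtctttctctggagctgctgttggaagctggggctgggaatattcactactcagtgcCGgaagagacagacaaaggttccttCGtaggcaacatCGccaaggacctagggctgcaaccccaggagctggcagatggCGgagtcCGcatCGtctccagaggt

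The summit sequence lies in the coding part of the variable exon and holds 6 CG dinucleotides. The upstream sequence is rich in A and T, and the whole promoter window of PCDHGA1 had 36.3% GC and 4 CpG, against a gamma median of 42.0% and 7.

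More intervals followed downstream of this exon. In KMT2D-KD an interval at chr5:141333267-141333574 (fold enrichment 5.11, −log10 q 5.52, 13 fragments) lay 2753 bases from the PCDHGA1 start, just outside the window, and another at chr5:141335082-141335407 (4.17, 3.49, 10 fragments) lay 3353 bases upstream of PCDHGA2. In NC a single interval at chr5:141333664-141333977 (4.56, 4.16, 12 fragments) overlapped an annotated exon of PCDHGA1, 3150 bases from its start and 4783 bases upstream of PCDHGA2. The NC interval and the first of these KMT2D-KD intervals were 90 bases apart and did not overlap. The members next inside and outside the 2 kb limit were PCDHGA1 at 32 bases and PCDHGA2 at 3353 bases in KMT2D-KD. In NC PCDHGA1 at 3150 bases was the nearest.

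For most members the nearest interval was far away. The median distance from a member 5′ end to the nearest interval was 79010 bases (NC) with a range of 3150 to 136936 bases and 52545 bases (KMT2D-KD) with a range of 32 to 113065 bases, whereas it was 20399 and 8827 bases over all protein-coding genes. The nearest interval was over 20 kb away for 46 members in NC (90.2%) and 41 in KMT2D-KD (80.4%), against 50.4 and 37.7% of all genes. It was within 10 kb for 3 and 6 members. The nearest interval was closer in KMT2D-KD for 47 members and closer in NC for 4, and 70.9% of all genes had their nearest interval closer in KMT2D-KD. These distances rest on 6 different intervals of NC and 7 of KMT2D-KD, because a member and its neighbours are measured to the same one. The KMT2D-KD list was also longer, with 92135 intervals against 64843 in NC. With both lists cut to the same length by −log10 q, the median member distances were 78.8 kb (KMT2D-KD) and 79 kb (NC).

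**Figure D2:**
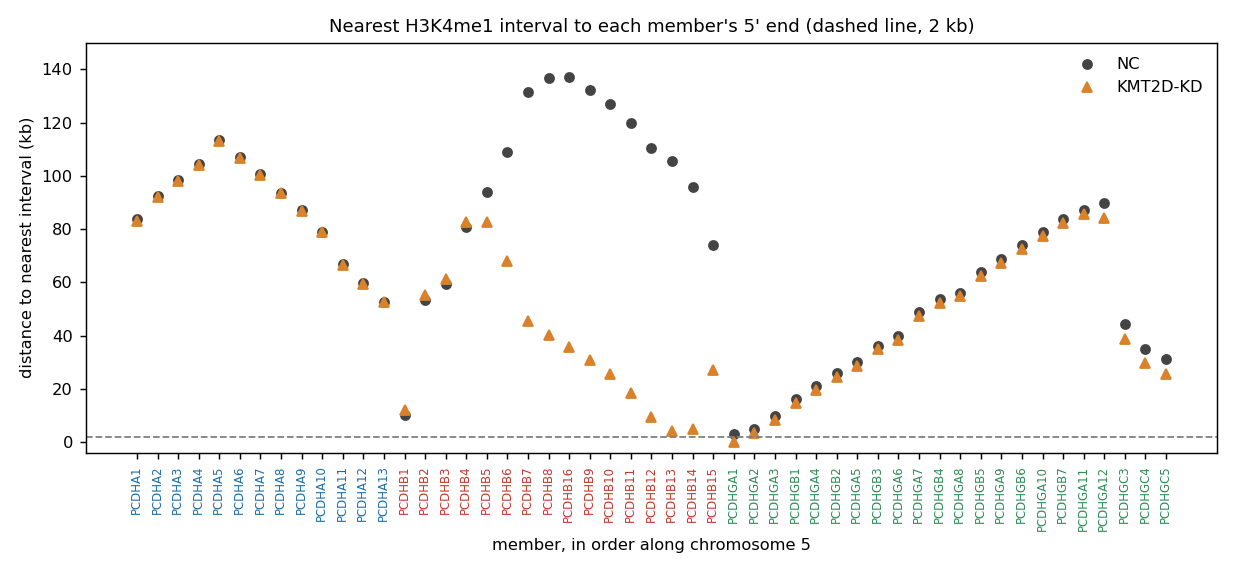
Distance in kb from the 5′ end of each of the 51 members, in chromosome order, to the nearest H3K4me1 interval in NC (circles) and KMT2D-KD (triangles), with alpha, beta and gamma names in blue, red and green and a dashed line at 2 kb. The conditions nearly coincide in the alpha and gamma clusters and part over the later beta genes, and PCDHGA1 in KMT2D-KD is the only point below the line.

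**Figure D3:**
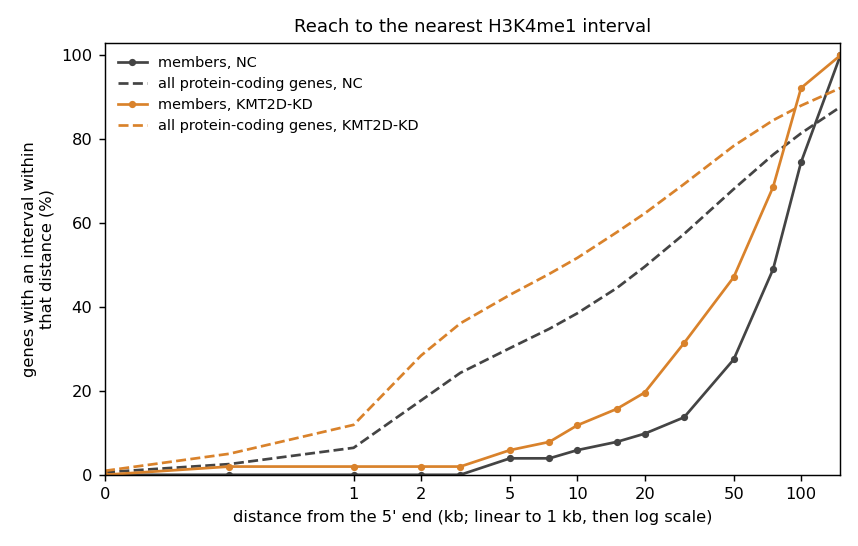
Share of genes in percent whose nearest H3K4me1 interval lies within the distance on the x axis (kb, linear to 1 kb and logarithmic above), for the 51 members (solid, with points) and all 20033 protein-coding genes (dashed), NC in grey and KMT2D-KD in orange. At 10 kb the members stood at 5.88 and 11.8% and all genes at 38.5 and 51.7%.

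The alpha variable exons lay in a stretch with no interval. From PCDHA1 to PCDHAC1, 140 kb, both lists held 0, a count of 0 that allows up to 21.4 intervals per Mb. PCDHA1, the first member, was 83692 bases from its nearest interval (NC) and 83171 bases (KMT2D-KD). PCDHA13, the last, was 52804 bases (NC) and 52545 bases (KMT2D-KD) from it. The median over the 13 alpha members was 92408 bases (NC) and 91887 bases (KMT2D-KD), so the family showed nearly the same distances in both lists. All 13 alpha 5′ ends fell in a run of 232 kb (chr5:140702966-140934668) with no interval in either list, and runs at least as long hold 17.3% of all protein-coding genes. The median such run of the genome was 2.4 kb.

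The beta family differed most between the lists, through a single interval. In NC the 198 kb of the beta genes held 0 intervals and in KMT2D-KD 1, at chr5:141217993-141218245 in the exon of PCDHB13, 4074 bases downstream of its 5′ end. That interval was weak, with a fold enrichment of 2.68, a −log10 q of 1.61 and 11 fragments over a background of 3.47, and 3.40% of the list had a lower −log10 q. The median distance over the 16 beta members was 107166 bases (NC) and 33236 bases (KMT2D-KD), and this difference rests on that interval. PCDHB1, the first beta gene, was 10244 bases from the nearest interval (NC) and 12086 bases (KMT2D-KD). PCDHB15, the last, was 73928 bases away (NC) and 27150 bases (KMT2D-KD). A run of 177 kb with no interval in either list held 14 beta 5′ ends, from PCDHB1 to PCDHB13, and runs as long hold 22.5% of protein-coding genes.

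The gamma family had a median distance over 22 members of 42056 bases (NC) and 38555 bases (KMT2D-KD). The 145 kb of the gamma variable exons held 1 (NC) and 3 (KMT2D-KD), all at or near PCDHGA1, and the segments of the C-type genes and of the gamma constant exons held 0 in both lists. PCDHGC3, PCDHGC4 and PCDHGC5, the C-type genes, were 44198, 35148 and 31064 bases from the nearest interval in NC and 38626, 29576 and 25492 bases in KMT2D-KD. From PCDHGA2 to PCDHGC5, 21 members fell in a run of 179 kb with no interval in either list, and runs as long hold 22.1% of protein-coding genes.

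Across the whole span, 13 intervals were listed for NC and 25 for KMT2D-KD, with a log2(KMT2D-KD / NC) of 0.94 (interval derived from the exact binomial one, -0.08 to 2.03). The genome as a whole gave 0.51, within that interval. From the PCDHA1 5′ end to the last gamma base there were 8 intervals in NC, or 11 per Mb (exact Poisson 95% interval 4.75 to 21.7), and 13 in KMT2D-KD, or 17.9 per Mb (9.52 to 30.6). Over the genome the values were 22.1 and 31.4 per Mb and over chromosome 5 they were 29.4 and 36.4. The covered share of the clusters was 0.333% in NC and 0.695% in KMT2D-KD, and that of the genome 1.1 and 1.69%.

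**Figure D4:**
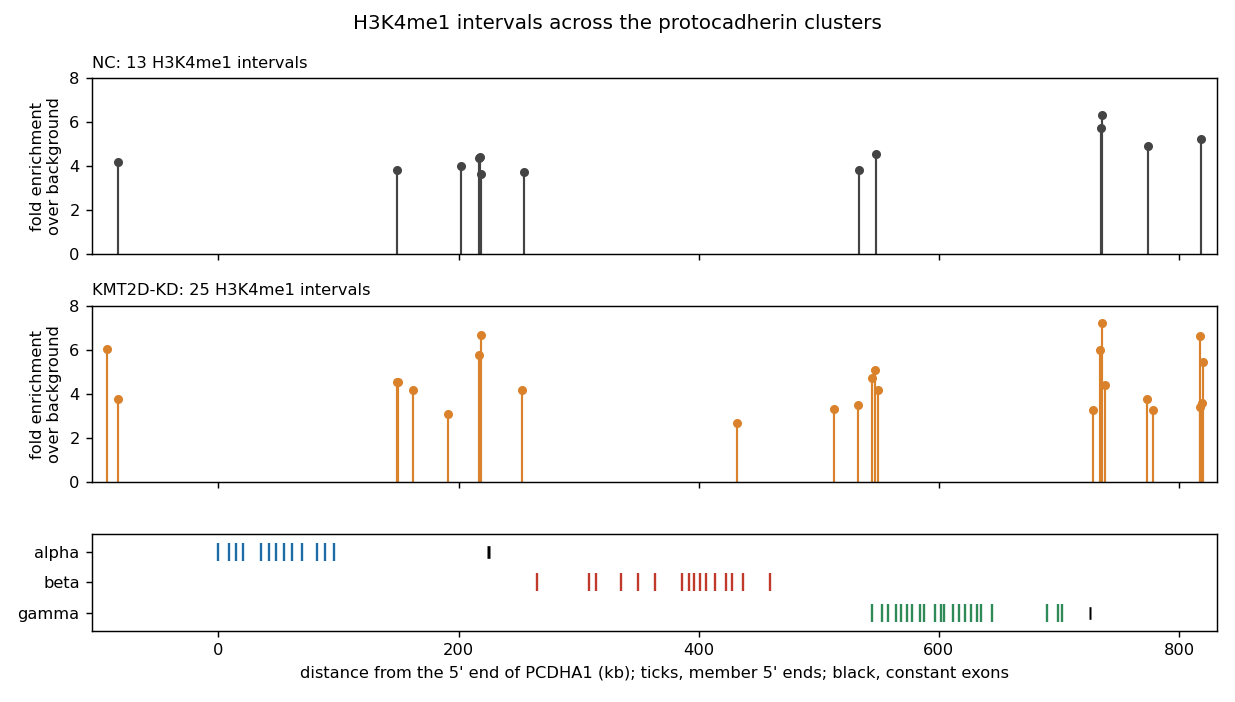
Fold enrichment over background at the summit of every H3K4me1 interval of the span in NC (upper, 13 intervals) and KMT2D-KD (middle, 25), against distance in kb from the PCDHA1 5′ end, with member 5′ ends as ticks and constant exons in black (lower). The alpha variable exons carry no interval, the intervals group at the alpha constant exons, at PCDHGA1 and beyond the gamma cluster, and the highest values are 6.34 in NC and 7.25 in KMT2D-KD.

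In NC the stretch of the alpha constant exons held more intervals than any other segment of the clusters. Over 33.4 kb NC had 4 intervals there and KMT2D-KD 2, or 120 and 59.9 per Mb, although the KMT2D-KD intervals covered more bases (2092 against 964). The exact Poisson interval reached from 32.6 to 307 per Mb in NC and from 7.25 to 216 per Mb in KMT2D-KD, so the order of the counts lies inside the counting error. In KMT2D-KD the segment before it, from PCDHAC1 to the constant exons (52.6 kb), held 4 intervals, and in NC it held 1. Constant exons encode the cytoplasmic end that every alpha protein shares. In NC, all 4 intervals lay in the intron between the second and the third constant exon. The first, at chr5:140988165-140988453, had a fold enrichment of 4.01, a −log10 q of 3.27 and 11 fragments. The other 3 lay together further downstream, at chr5:141002930-141003204 (fold enrichment 4.37, −log10 q 4.37, 14 fragments), chr5:141003766-141003961 (4.45, 4.06, 12 fragments) and chr5:141004989-141005192 (3.67, 3.39, 14 fragments). In KMT2D-KD the same intron held 1 broad interval of 1581 bases at chr5:141002538-141004118 (5.77, 7.36, 16 fragments), which overlapped the first and second of these 3. Its other interval, at chr5:141004307-141004817 (6.69, 9.05, 17 fragments), overlapped none of the NC intervals and lay 172 bases from the last of them. Enhancers of the alpha cluster have been described in that intron and downstream of the cluster, and whether these intervals overlap them was not examined.

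The 201 bases around the summit of this last interval (chr5:141004611-141004811, plus strand, hg38) are shown because it had the highest −log10 q of either list within the clusters, with CG in capitals. The corresponding window of the KMT2D-KD interval between the alpha and beta clusters (chr5:141039075-141039275, plus strand), which is the nearest interval of that list to PCDHB1, is shown beside it.
Alpha constant intron summit: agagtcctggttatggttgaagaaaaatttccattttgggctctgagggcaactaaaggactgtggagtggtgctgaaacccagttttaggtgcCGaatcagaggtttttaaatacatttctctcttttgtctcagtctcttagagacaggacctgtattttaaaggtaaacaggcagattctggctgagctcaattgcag
Between alpha and beta summit: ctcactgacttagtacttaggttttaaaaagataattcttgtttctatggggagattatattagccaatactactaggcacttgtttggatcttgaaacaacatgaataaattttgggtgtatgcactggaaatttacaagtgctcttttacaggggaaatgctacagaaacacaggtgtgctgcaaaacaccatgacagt

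The intron sequence holds 1 CG dinucleotide and the other holds 0, whereas the summit inside the PCDHGA1 exon held 6. Between alpha and beta there was 1 interval per list, at chr5:141040931-141041130 in NC (3.75, 3.09, 12 fragments) and at chr5:141038822-141039288 in KMT2D-KD (4.17, 3.49, 10 fragments), 1643 bases apart. The C-type genes PCDHAC1 and PCDHAC2 had 0 intervals within 2 kb in either list. Intervals lay 8629 bases from PCDHAC1 in NC and 8370 bases in KMT2D-KD.

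**Figure D5:**
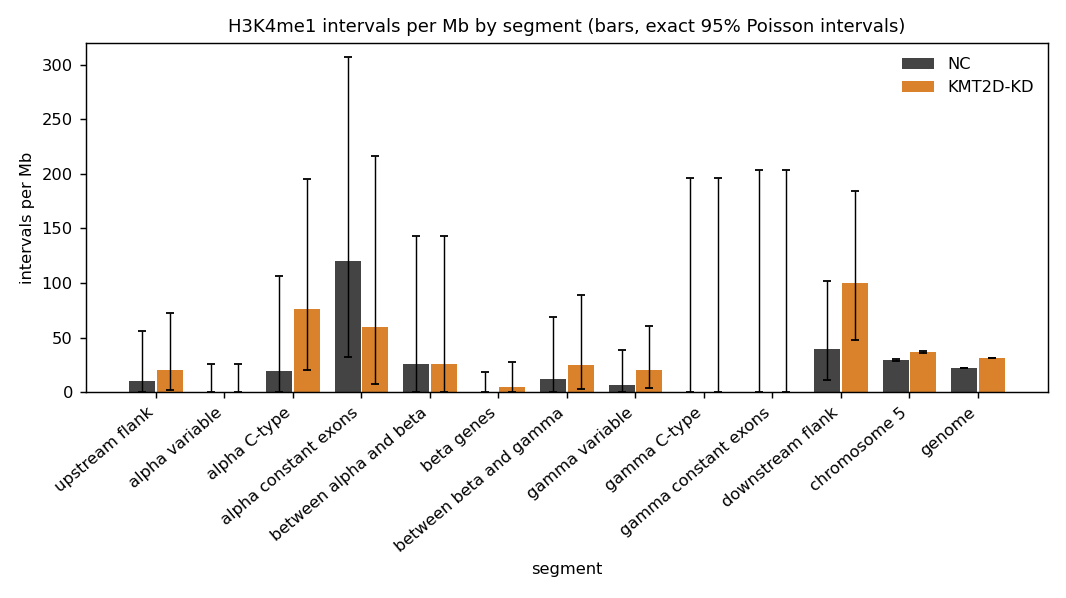
Intervals per Mb in each segment of the span, in chromosome order, and over chromosome 5 and the genome, for NC (grey) and KMT2D-KD (orange), with exact 95% Poisson intervals. The alpha variable segment is at 0 in both lists, the alpha constant exons stand at 120 and 59.9 per Mb and the genome at 22.1 and 31.4 per Mb.

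The strongest intervals of the span lay outside the clusters, in the gene DIAPH1, which encodes an actin-nucleating formin and lies downstream of gamma. In NC the 3 highest by −log10 q were all there, at chr5:141521250-141522577 (8.66), chr5:141520145-141520899 (6.85) and chr5:141603662-141604195 (5.59). In KMT2D-KD the first 2 were there too, at chr5:141521366-141522514 (11) and chr5:141603667-141604330 (10.4), and the third was the interval of the alpha constant intron (9.05). The DIAPH1 intervals are named by position alone, and whether they bear on the protocadherin genes was not examined. The flanks held 5 (NC) and 12 (KMT2D-KD) intervals, with a log2(KMT2D-KD / NC) of 1.26 (-0.34 to 3.12). Of the intervals with no overlap in the other list, the 3 highest in KMT2D-KD were the alpha constant intron interval, 1 in HARS2 (chr5:140693247-140693682, 7.44), which encodes a mitochondrial histidyl-tRNA synthetase, and 1 at chr5:141605612-141606178 in DIAPH1 (6.32). In NC they were chr5:141560548-141560747 in DIAPH1 (4.86), the PCDHGA1 exon interval (4.16) and chr5:140701725-140702444 in ZMAT2 (3.49).

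Fewer intervals of the span than of the whole lists overlapped an interval of the other condition. In NC 6 of 13 intervals overlapped an interval of the other list (46.2%, exact interval 19.2 to 74.9%). Of the whole NC list 69.7% did, a share that the exact interval included. In KMT2D-KD it was 5 of 25 (20%, 6.83 to 40.7%) against 46.6%, and for this list the exact interval did not reach the share of the whole list. Within 1000 bases it was 11 of 13 and 13 of 25, or 84.6 and 52.0%, against 84.1 and 64.9% of the whole lists. The exact intervals at that distance, 54.6 to 98.1% and 31.3 to 72.2%, both included the share of the whole list. An interval of the KMT2D-KD span held between 8 and 21 fragments and one of NC between 10 and 19, and the median of both whole lists was 12. At the lowest background of each list, the fewest fragments of an interval were 8 (NC) and 7 (KMT2D-KD), so a weaker enrichment was not detectable at this depth. The intervals of the span had a median fold enrichment of 4.37 in NC and 4.17 in KMT2D-KD against 4.16 and 4.17 over the lists.

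The KMT2D and EBF2 lists, which held between 238 and 318 intervals each, had 0 intervals in the span, and the nearest lay 2.01 Mb away. Lists of so few intervals leave most genes without one.

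Other genes served as a comparison for the protocadherins. Among the 12 non-clustered protocadherins, 1 had an interval within 2 kb in each list, PCDH12, an endothelial protocadherin, at 275 bases (NC) and 440 bases (KMT2D-KD). Their median distance to the nearest interval was 114552 (NC) and 102620 bases (KMT2D-KD), longer than the 79010 and 52545 bases of the clustered members. It was over 100 kb for 7 (NC) and 6 (KMT2D-KD) of them. PCDH7 stood at 49564 (NC) and 3145 bases (KMT2D-KD), and PCDH1, which lies downstream of the gamma cluster, at 30206 and 7852. PCDH9 went the other way, at 6100 (NC) and 108148 bases (KMT2D-KD), and PCDH12, PCDH15 and PCDH19 were also nearer in NC. The next set was 12 genes that regulate the clusters, such as the architectural protein CTCF and the cohesin subunits. Of these, 5 had an interval within 2 kb in NC (SETDB1, WAPL, SMC3, SMCHD1 and STAG1) and 2 in KMT2D-KD (SETDB1 and CTCF). Epithelial markers, which define the line's tissue type, had one in 3 of 5 (NC) and 4 of 5 (KMT2D-KD), including KRT8 at 494 and 511 bases. The shares over all genes were 17.7 and 28.4%, and the exact interval for these 5 genes was wide, 14.7 to 94.7% in NC. CDH1 had none that near in either list (3644 and 3379 bases), and EPCAM was 51097 bases from its nearest interval in NC. KRT8 and KRT18 are neighbours with overlapping windows, so they are not separate cases. The neural markers RBFOX3, MAP2, SYP, SNAP25 and NEFL had 0 of 5 in both. The exact interval for 0 of 5 reached 52.2%, so it included the shares over all genes and overlapped that of the epithelial markers. Genes of the span other than protocadherins had 1 of 7 in NC, TAF7, a subunit of the general transcription factor TFIID, at 902 bases, and 4 of 7 in KMT2D-KD, namely TAF7, DIAPH1, and HARS1 and HARS2, which share an interval.

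Repeated sequence was checked because the clusters hold similar genes, which can leave reads unplaced. The share of 50-base sequences in the 4 kb around a member 5′ end that occur elsewhere in the genome had a median of 5.14% and a maximum of 28.2%, at PCDHB8. In 200 protein-coding genes taken at even steps the median was 1.81%. For 100-base sequences the medians were 0.641 and 0%, and at 150 bases both were 0%. No member had over 50% repeated sequence at any of these lengths, and the read length was not given in the sources used here. The part of repeated sequence in the scarcity of intervals was not tested.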

How the data were processed

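ChIP-seq peak lists of 6 libraries of SW1990 cells were used, with 1 library per target and condition, grouped by their titles. The authors aligned reads with bwa after in-house filtering and called each library against the SW1990 input, and the submitters' processing notes name BWA, MACS2, HOMER and hg38, with no versions. Treatment of duplicate and multiply mapped reads was not given in the sources used here. In the deposited lists a ratio, the fold enrichment over background, is given for every summit. The deposited −log10 p-value and −log10 q-value of each interval are the authors' own. No column of the lists held a comparison between conditions.

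Intervals were counted as deposited, on hg38 with GENCODE 44 5′ ends, counted from 1. Fragments were recovered from fold enrichment and −log10 p (tolerance 0.001). Depths were estimated from the lists, not counted from reads, at 9.89 (NC) and 9.29 (KMT2D-KD) fragments per kb. Shares have exact Clopper-Pearson and rates exact Poisson 95% intervals, computed on numbers of genes and intervals. They cover counting error only, since 1 library per condition gives no measure of variation between libraries. Reads without molecular identifiers are also not independent molecules. Alternatives were other windows, flanks, overlaps, q-value limits, list lengths and 5′ ends. The counting was tested on simulated data. Python 3.11.15, pandas 2.3.3, scipy 1.17.1 and pysam 0.24.0 were used.

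Genes named were every member with an interval in the window, the first and last member of each family, the C-type genes, and fixed lists of other genes, and intervals named were the 3 highest by −log10 q. The members and lists were chosen with earlier results of these data known, and no test or p-value was computed.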

Additional observations from a re-analysis of the deposited data

How the results depend on the processing

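Of 54 alternative values for 10 results, 43 stayed within the spread set by counting error or within 1.5 times the count, and 11 moved. A change of direction was not scored. With a −log10 q of at least 5, 0 members had an interval within 2 kb in KMT2D-KD and 0 in KMT2D-KD alone, since the PCDHGA1 interval has 4.75. All genes stood at 9.55 and 6.58% there and at 4.47% in NC, and the exact interval for 0 of 51 (up to 6.98%) included all of these but 9.55%. The same limit left 3 intervals in the span in NC and 8 in KMT2D-KD, gave an NC share found in the other list of 100% (3 of 3), and moved the median distance to 311 kb (NC) and 92.5 kb (KMT2D-KD). With both lists cut to the same length by −log10 q, the span held 16 intervals in KMT2D-KD and 13 in NC, and the median distance in KMT2D-KD was 78.8 kb against 79.0 kb in NC. Counting intervals within 1000 bases as found gave shares of 84.6% in NC and 52.0% in KMT2D-KD. A window of 5000 bases gave 2 members in NC (PCDHGA1 and PCDHGA2) and 3 in KMT2D-KD (also PCDHB13), against 30.2 and 42.9% of all genes. The KMT2D-KD list was the longer one, and the depths estimated from the lists were 9.29 (KMT2D-KD) and 9.89 (NC) fragments per kb. How depth bears on the list lengths was not tested. No paired analysis was possible because each target and condition had 1 library. Counts of 0 or 1 in this span cannot show small differences at this depth.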
